A study of Homo sapiens with 8 samples.

Results

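The 36 genes described here encode enzymes that make or convert amino acids, enzymes of folate-dependent one-carbon metabolism and carriers that move amino acids across membranes. They were chosen by symbol, with earlier results of these data known, from a table of 60676 Ensembl gene IDs. Of the 36 genes, 22 encode enzymes and 14 transporters. Bulk RNA-seq read counts came from 8 libraries of IGR-N91, an established human neuroblastoma cell line, grown as hanging-drop aggregates and collected after 20 h in 1 of 4 media, with 2 libraries in each group. Control libraries came from cells in medium with no ganglion conditioning. The E8-cSGcm and E8-cDRGcm libraries came from cells in medium conditioned by sympathetic ganglia and by dorsal root ganglia of chick embryos at embryonic day 8, and the E15.5-mSGcm libraries from cells in medium conditioned by sympathetic ganglia of mouse embryos at stage E15.5. The labels name no genetic change and no drug for any group. They mark the control libraries as E8, and no control is marked E15.5. Whether the mouse medium was run beside these controls is not stated. All cells were of 1 line, and each conditioned medium was made from ganglia pooled from several embryos. The paper's aggregation assays used fluorescent cells, and whether the sequenced cells carried that label is not stated. The chick and mouse media differ in species and in embryonic day together, so those cannot be told apart. By Carnegie stages the paper places the mouse stage close to E8 of the chick. The labels call the libraries duplicates and do not say that they are separate cultures, so the p-values below measure the spread between these libraries, which may be technical.

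Cells can make serine from a glycolytic intermediate, and serine hydroxymethyltransferases pass a carbon unit from serine to folate, which mitochondrial and cytosolic dehydrogenases then carry towards purines, thymidylate and methionine. Asparagine synthetase, the aminotransferases and the cystine, leucine and glutamine carriers supply the other amino acids that a growing cell uses. Many of these genes are known as targets of ATF4, a transcription factor whose translation rises when amino acids run short or the endoplasmic reticulum is under stress, and MYCN-amplified neuroblastoma is known for a high use of glutamine, serine and cystine.

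Total counts ran from 7930765 to 15060744 per library, and the E15.5-mSGcm libraries were the shallowest, at 7930765 and 8937397. Levels are given as CPM, the count of a gene scaled to its library's TMM-normalised total, and 3 counts, taken as the limit that a count of 0 allows, correspond to 0.199 to 0.378 CPM, which covers counting error only. The mitochondrial share of the counts was 4.65% to 6.22% in the other 6 libraries and 7.03% to 7.46% in E15.5-mSGcm. Of 9 noradrenergic neuroblast markers 8 had counts, CHGA being at 0, and their summed level was 3103 to 3246 CPM in control medium, 2765 to 2944 in E8-cSGcm, 2254 to 2331 in E8-cDRGcm and 2249 to 2277 in E15.5-mSGcm. Marker sums were 416 to 476 CPM for 6 fibroblast genes, at most 4.10 CPM for 6 Schwann cell genes with SOX10 and FOXD3 among those at 0, at most 1.41 CPM for 5 leukocyte genes with CD3E at 0, and at most 0.769 CPM for the 3 endothelial genes in the table, with CDH5 and CLDN5 at 0. Among the fibroblast genes the single levels moved apart in E15.5-mSGcm, where COL1A1 was at 28.4 to 31.9 CPM against 99.1 to 156 in the other libraries, LUM at 92.0 to 107 against 43.7 to 67.8, DCN at 13.5 to 13.7 against 1.35 to 2.76 and COL1A2 at 10.8 to 14.3 against 1.94 to 4.73. The part of depth, mitochondrial share and these markers in the results below was not tested, beyond the thinning of depth given with them. In bulk samples, fewer cells of a type and less RNA per cell cannot be told apart.

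The first question was which of these genes differed between each conditioned medium and control medium. After exposure to E8-cSGcm 14 members rose and 1 fell, and after E8-cDRGcm 18 rose and 2 fell, whereas after E15.5-mSGcm none rose and 5 fell. Calls needed both an adjusted p (Benjamini-Hochberg, over every gene tested) under 0.05 and a 1.5-fold or larger change. Of the 36 members 34 could be tested, and SHMT1 and PRODH were at 0 counts in all 8 libraries. Among all 16680 genes tested, 4.73% were called higher and 3.86% lower in E8-cSGcm, 9.81% and 10.9% in E8-cDRGcm, and 6.65% and 7.27% in E15.5-mSGcm. The members called higher were therefore 41.2% and 52.9% of those tested in the chick media, and those called lower 14.7% in the mouse medium. One member, SLC7A3, passed the filter on low counts only through the chick media, where it is high, and without it 13 and 17 of 33 members were called higher there.

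The median log2 fold change of the 34 members was 0.40 in E8-cSGcm, 0.73 in E8-cDRGcm and -0.17 in E15.5-mSGcm, beside medians over all genes tested of 0.010, 0.0055 and -0.015. The 3 comparisons share the same 2 control libraries, so they are not independent of each other. With 0 members called higher in E15.5-mSGcm, 5 had a positive fold change at an unadjusted p under 0.05 in the edgeR quasi-likelihood test, none of them at a fold of 1.5, and DESeq2 also called 0. With every library thinned to 7930765 counts, 13 members were called higher in E8-cSGcm and 18 in E8-cDRGcm, and 5 were called lower in E15.5-mSGcm. Between the 2 libraries of a group the members differed by a median of 0.069 to 0.10 on the log2 scale.

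**Figure D1:**
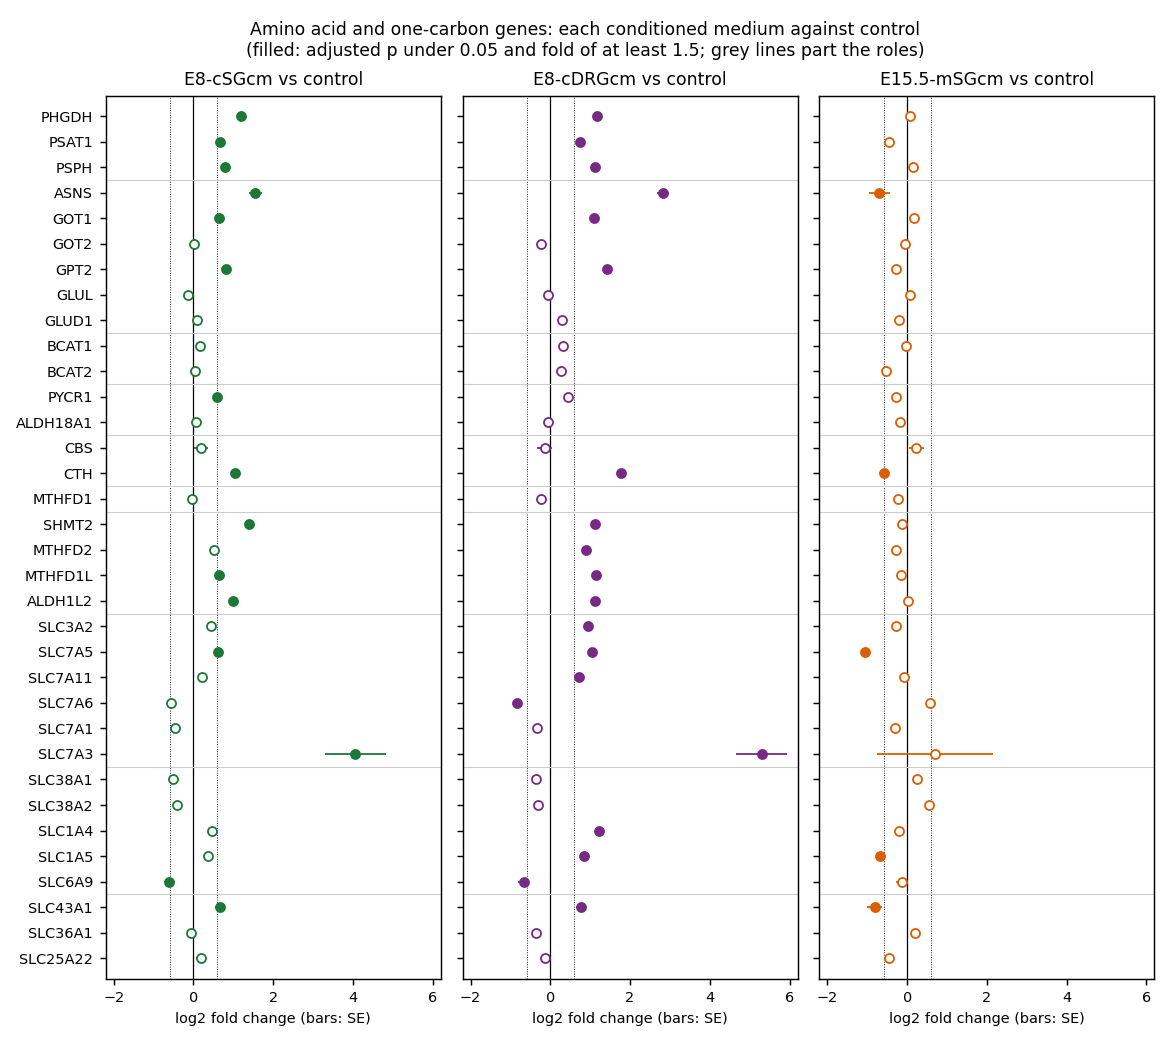
Log2 fold change of each of the 34 tested members (rows, grouped by role) in E8-cSGcm, E8-cDRGcm and E15.5-mSGcm against control medium, with bars for the standard error, dotted lines at a fold of 1.5 and filled circles for members that were called. Filled circles lie mostly to the right in both chick media (14 and 18 higher) and only to the left in E15.5-mSGcm (5 lower).

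By pattern, 13 members rose in both chick media, 5 were called higher in E8-cDRGcm and not in E8-cSGcm, and 1 was called higher in E8-cSGcm and not in E8-cDRGcm. Of those called in one chick medium, SLC1A4 also passed the test of the difference between the 2 chick media. Of these 19 members, 5 fell in E15.5-mSGcm and 14 were not called there. At most 4.73% of all genes tested can have risen in both chick media, since that share was called higher in E8-cSGcm. The shares of all genes with the other patterns were not counted, and the calls rest on the same control libraries. The enzymes accounted for 11 members called higher in each chick medium out of 20 tested, and the transporters for 3 in E8-cSGcm and 7 in E8-cDRGcm out of 14. The other 13 tested members were not called in any medium against control.

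Promoter sequence is shown for members with the letters TGATGNAA on either strand, the core of the C/EBP-ATF response element known from the ASNS promoter, since that gene had one of the largest changes. RefSeq promoter windows of 300 bases, from 250 before to 50 after a start (GRCh38.p14), were matched for 27 of the 36 members, not for PSPH, SHMT2, ALDH1L2, PYCR1, PRODH, GPT2, BCAT2, SLC7A11 and SLC7A3. The letters occurred in the windows of 9 of these 27 members (33.3%) and in 11 of their 49 windows (22.4%), against 3.62% of all 35116 windows and 4.46% of 27305 gene symbols. They stood in 6 of the 12 members with a window that rose in a chick medium (ASNS, MTHFD1L, GOT1, SLC3A2, SLC1A4 and SLC1A5) and in 3 of the other 14 tested members with one (BCAT1, SLC7A1 and SLC38A1). Since the letters were taken from the ASNS promoter, that match was fixed by the choice, and without ASNS they stood in 8 of 26 members with a window and in 5 of 11 that rose. A match is a run of letters and not a measured binding site. The 11 windows are not 11 separate sites, since overlapping windows of MTHFD1L hold the same site. Many members are known ATF4 targets, so a share above that of all windows may follow in part from how the list was chosen. Each line below is read 5′ to 3′ on the gene's strand, which is the minus strand for all 4 genes, with 20 bases either side and the match in capitals. The match starts 68 bases before the start in ASNS (chr7:97872449-97872496) and 97 bases before it in SLC1A5 (chr19:46784884-46784931). It starts 198 bases before it in GOT1 (chr10:99430795-99430842), where it lies on the opposite strand. In BCAT1 (chr12:24949122-24949169), which was not called in any medium, it starts 48 bases before it.
ASNS: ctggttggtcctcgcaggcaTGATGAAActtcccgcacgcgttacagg
SLC1A5: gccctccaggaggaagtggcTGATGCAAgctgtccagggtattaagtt
GOT1: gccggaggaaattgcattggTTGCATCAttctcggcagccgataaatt
BCAT1: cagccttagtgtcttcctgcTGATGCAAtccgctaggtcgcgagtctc

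All 3 genes of serine synthesis rose in both chick media. PHGDH (ENSG00000092621), the first and committing enzyme of the pathway, was at 121 and 108 in control medium, 255 and 266 in E8-cSGcm, 259 and 258 in E8-cDRGcm and 113 and 127 in E15.5-mSGcm (CPM in the 2 libraries of each group). Both libraries of each chick medium were above every control library and the E15.5-mSGcm libraries overlapped the control ones. Against control its log2 fold change, with the standard error (SE) of the fit, was 1.19 ± 0.06 SE, adjusted p = 1.56e-18 in E8-cSGcm, 1.18 ± 0.06 SE, adjusted p = 4.58e-19 in E8-cDRGcm and 0.07 ± 0.06 SE, adjusted p = 0.412 in E15.5-mSGcm. The PHGDH levels in the chick media did not differ beyond their spread, with a log2 difference of -0.01 ± 0.05 SE, adjusted p = 0.88, between E8-cDRGcm and E8-cSGcm.

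PSAT1 (ENSG00000135069), the aminotransferase of the second step, was at 159 and 145 in control medium, 233 and 247 in E8-cSGcm, 251 and 262 in E8-cDRGcm and 114 and 108 in E15.5-mSGcm. It rose 1.58-fold and 1.69-fold in the chick media (adjusted p = 3.8e-12 and 1.66e-14). Its log2 fold change in E15.5-mSGcm, -0.46 ± 0.06 SE, adjusted p = 8.9e-08, was under the fold required, with both libraries below both controls. PSPH (ENSG00000146733), the phosphatase that releases serine, stood at 64.5 and 59.9 in control medium, 105 and 109 in E8-cSGcm, 130.1 and 142 in E8-cDRGcm and 69.4 and 68.2 in E15.5-mSGcm. Its reads may be shared with a near-identical pseudogene copy. The order of PSPH was E8-cDRGcm above E8-cSGcm above the other libraries, with no overlap between the 2 chick media and the rest. Its log2 fold changes were 0.79 ± 0.06 SE, adjusted p = 1.58e-12 in E8-cSGcm, 1.13 ± 0.06 SE, adjusted p = 7.31e-18 in E8-cDRGcm and 0.15 ± 0.07 SE, adjusted p = 0.0965 in E15.5-mSGcm.

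Of the 4 mitochondrial one-carbon members 3 rose in E8-cSGcm and all 4 in E8-cDRGcm, and none was called in E15.5-mSGcm against control, MTHFD2 having an adjusted p under 0.05 there but not the fold. The 1 cytosolic member that could be tested, MTHFD1, was not called. SHMT2 (ENSG00000182199), the mitochondrial serine hydroxymethyltransferase, had 189 and 176 in control medium, 465 and 499 in E8-cSGcm, 399 and 399 in E8-cDRGcm and 164 and 172 in E15.5-mSGcm CPM. It was higher in E8-cSGcm than in any other library, and its fold changes were 2.64 in E8-cSGcm (log2 1.40 ± 0.05 SE, adjusted p = 2.26e-22) and 2.19 in E8-cDRGcm (log2 1.13 ± 0.05 SE, adjusted p = 4.06e-20). The log2 fold change in E15.5-mSGcm was -0.12 ± 0.05 SE, adjusted p = 0.0825. ALDH1L2 (ENSG00000136010), the mitochondrial 10-formyltetrahydrofolate dehydrogenase, was at 104 and 102 in control medium, 209.9 and 201 in E8-cSGcm, 229 and 219 in E8-cDRGcm and 101 and 109 in E15.5-mSGcm. It rose by log2 0.99 ± 0.05 SE, adjusted p = 6.02e-17, in E8-cSGcm and by log2 1.12 ± 0.05 SE, adjusted p = 2.67e-19, in E8-cDRGcm, and its E15.5-mSGcm libraries lay either side of the controls.

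MTHFD1L (ENSG00000120254), the mitochondrial formyltetrahydrofolate synthetase, had 33.3 and 33.6 in control medium, 50.5 and 53.6 in E8-cSGcm, 72.6 and 75 in E8-cDRGcm and 29.8 and 30.5 in E15.5-mSGcm CPM. It rose by log2 0.64 ± 0.08 SE, adjusted p = 1.51e-08, in E8-cSGcm and by log2 1.14 ± 0.07 SE, adjusted p = 5.27e-16, in E8-cDRGcm. MTHFD2 (ENSG00000065911), the mitochondrial methylenetetrahydrofolate dehydrogenase, stood at 333 and 298 in control medium, 440.0 and 466 in E8-cSGcm, 568 and 598 in E8-cDRGcm and 257 and 259.8 in E15.5-mSGcm. For MTHFD2 all 4 chick-medium libraries were above the controls and both E15.5-mSGcm libraries below them, but only E8-cDRGcm passed the fold required, with log2 0.89 ± 0.05 SE, adjusted p = 5.31e-17, against 0.52 in E8-cSGcm and -0.29 in E15.5-mSGcm. Without control replicate 1 MTHFD2 was also called higher in E8-cSGcm. MTHFD1 (ENSG00000100714), the cytosolic enzyme that holds all 3 activities, was between 183 and 223 CPM in every library, with log2 fold changes of -0.03, -0.23 and -0.24 in E8-cSGcm, E8-cDRGcm and E15.5-mSGcm (adjusted p = 0.744, 0.000166 and 0.000398), all under the fold required. MTHFD2L, a mitochondrial relative of MTHFD2 outside the 36 members, had log2 fold changes of -0.26, -0.37 and -0.15 and was not called. Within a library the ratio of SHMT2 to MTHFD1 counts was 0.811 and 0.848 in control medium, 2.13 and 2.33 in E8-cSGcm, 2.09 and 2.18 in E8-cDRGcm and 0.864 and 0.932 in E15.5-mSGcm. The cytosolic SHMT1 (ENSG00000176974) was at 0 counts in every library, as PRODH and CHGA were. Whether the counting could assign reads to these genes was not tested.

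ASNS (ENSG00000070669), which makes asparagine from aspartate and glutamine, moved in both directions. Its level was 3.29 and 4.47 in control medium, 10.8 and 12.2 in E8-cSGcm, 26.6 and 28.9 in E8-cDRGcm and 2.05 and 2.74 in E15.5-mSGcm CPM, so that the groups did not overlap and ran from E15.5-mSGcm through control and E8-cSGcm to E8-cDRGcm. ASNS rose 2.94-fold in E8-cSGcm (log2 1.56 ± 0.17 SE, adjusted p = 2.35e-09) and 7.06-fold in E8-cDRGcm (log2 2.82 ± 0.14 SE, adjusted p = 1.34e-18). It fell in E15.5-mSGcm (log2 -0.70 ± 0.27 SE, adjusted p = 0.037). The fall was not called with DESeq2 (adjusted p = 0.105), from the compared libraries alone (0.0522), without control replicate 2 (0.314), or without E15.5-mSGcm replicate 1 (0.244) or replicate 2 (0.057). Per kilobase of exon ASNS was among the lowest members in control medium, at 0.792 CPM per kb, and reached 5.66 CPM per kb in E8-cDRGcm.

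Of the tested aminotransferases outside serine synthesis, GPT2 and GOT1 rose in both chick media, and GOT2, BCAT1 and BCAT2 were not called against control. GPT2 (ENSG00000166123), the mitochondrial alanine aminotransferase, was at 97.6 and 82.2 in control medium, 152 and 163 in E8-cSGcm, 238 and 244 in E8-cDRGcm and 71.1 and 75.4 in E15.5-mSGcm. GPT2 rose by log2 0.81 ± 0.06 SE, adjusted p = 2.71e-12, in E8-cSGcm and by log2 1.43 ± 0.06 SE, adjusted p = 1.04e-19, in E8-cDRGcm. GOT1 (ENSG00000120053), the cytosolic aspartate aminotransferase, was at 43.2 and 41.1 in control medium, 66.2 and 65.5 in E8-cSGcm, 91.6 and 89.6 in E8-cDRGcm and 46.2 and 48.8 in E15.5-mSGcm. GOT1 rose by log2 0.64 ± 0.07 SE, adjusted p = 1.92e-09, in E8-cSGcm and by log2 1.11 ± 0.07 SE, adjusted p = 1.37e-16, in E8-cDRGcm. Both genes were highest in E8-cDRGcm, and in E15.5-mSGcm neither was called (log2 -0.29 and 0.18). GOT2, the mitochondrial counterpart of GOT1, was between 207 and 252 CPM, with log2 fold changes of 0.02, -0.23 and -0.05. GLUL, which makes glutamine, and GLUD1, which oxidises glutamate and whose reads may be shared with its near copy GLUD2, were not called, with log2 fold changes from -0.15 to 0.07 and from -0.20 to 0.29. Of the branched-chain aminotransferases, BCAT1 (675 to 854 CPM) had log2 fold changes of -0.02 to 0.31 and BCAT2 (13.1 to 24.7 CPM) of -0.52 to 0.27, with neither called.

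In the transsulfuration pair, which turns homocysteine into cysteine, CTH rose in both chick media and CBS was not called. CTH (ENSG00000116761), cystathionine gamma-lyase, had 17.7 and 16.2 in control medium, 35.1 and 34.4 in E8-cSGcm, 54.4 and 60.4 in E8-cDRGcm and 11.7 and 10.9 in E15.5-mSGcm CPM, with no overlap between any 2 groups. Its log2 fold change was 1.04 ± 0.09 SE, adjusted p = 5.18e-11 in E8-cSGcm, 1.76 ± 0.09 SE, adjusted p = 7.99e-19 in E8-cDRGcm and -0.59 ± 0.13 SE, adjusted p = 0.000376 in E15.5-mSGcm. The fall in E15.5-mSGcm lay at the fold required and was not called with RLE size factors, from the compared libraries alone, with a minimum of 10 counts in every library, or without control replicate 1 (log2 -0.53), E8-cDRGcm replicate 1 (-0.58) or E15.5-mSGcm replicate 2 (-0.54). CBS, cystathionine beta-synthase, was between 5.58 and 8.89 CPM, with log2 fold changes of 0.20, -0.15 and 0.23.

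Of the proline genes, PYCR1 (ENSG00000183010), the mitochondrial reductase of the last step, was at 149 and 131 in control medium, 204 and 221 in E8-cSGcm, 183 and 197 in E8-cDRGcm and 111 and 120.1 in E15.5-mSGcm. All 4 chick-medium libraries of PYCR1 were above the controls and both E15.5-mSGcm libraries below them. Only E8-cSGcm passed the fold required, with log2 0.60 ± 0.06 SE, adjusted p = 6.47e-10, and that call was lost without control replicate 2 (log2 0.51) or E8-cSGcm replicate 2 (0.54), with every library thinned (0.58) and after correction for GC content and length (0.50). The log2 fold change of PYCR1 was 0.44 in E8-cDRGcm and -0.27 in E15.5-mSGcm, and the difference between the 2 chick media was -0.16 ± 0.06 SE, adjusted p = 0.0338, which was not called. ALDH18A1, which makes the precursor of proline, was between 81.7 and 103 CPM and was not called, and PRODH, which degrades proline, was at 0 counts in all libraries.

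**Figure D2:**
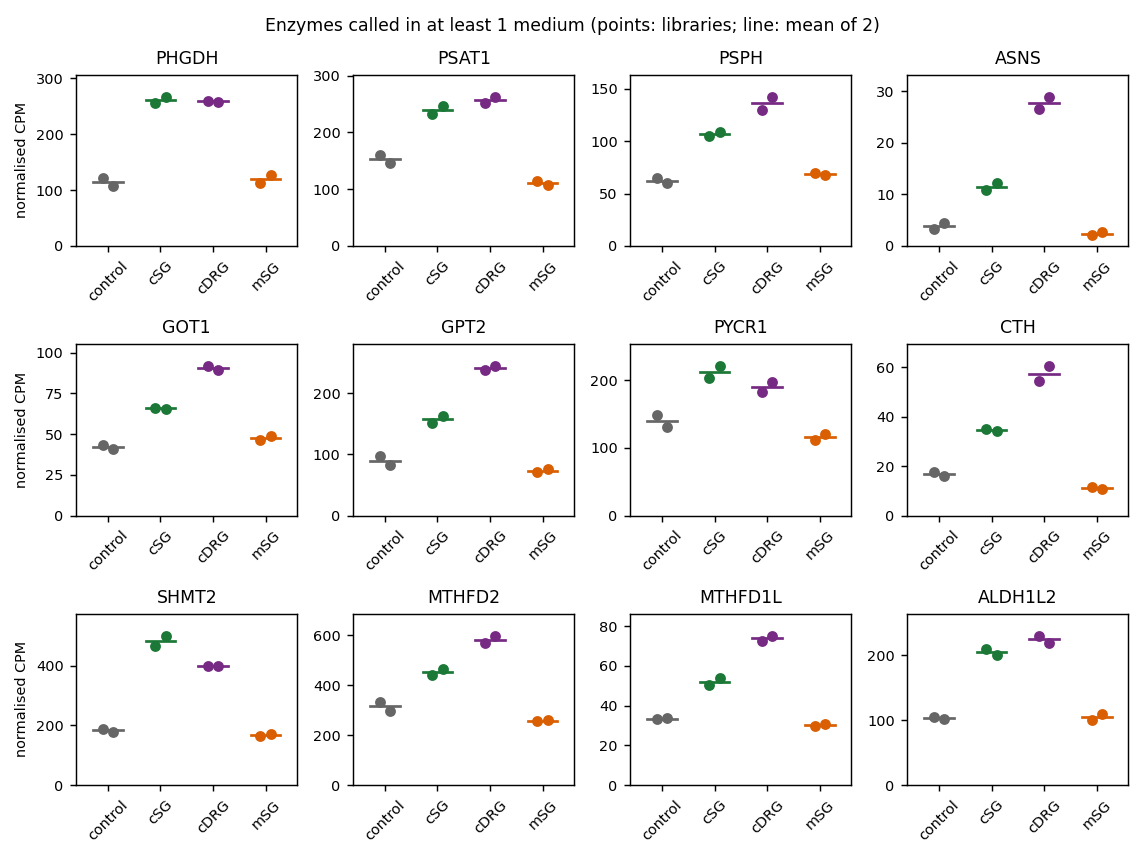
Normalised CPM (y axis, from 0) of the 12 enzymes called in at least 1 medium, 1 panel per gene, with a point for each library and a line at the mean of the 2 libraries in control medium, E8-cSGcm (cSG), E8-cDRGcm (cDRG) and E15.5-mSGcm (mSG). ASNS runs from 2.05 CPM in E15.5-mSGcm to 28.9 in E8-cDRGcm, and SHMT2 is a panel in which both E8-cSGcm libraries, at 465 and 499 CPM, stand above both E8-cDRGcm ones.

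Among the transporters, the heteromeric carriers SLC7A5 and SLC7A11 pair with the heavy chain SLC3A2. SLC7A5 (ENSG00000103257), the light chain of the leucine carrier LAT1, was at 119 and 115 in control medium, 181 and 176 in E8-cSGcm, 228 and 250.2 in E8-cDRGcm and 54.7 and 56.7 in E15.5-mSGcm, with no overlap between groups. It rose 1.52-fold in E8-cSGcm (log2 0.61 ± 0.06 SE, adjusted p = 4.39e-11) and 2.05-fold in E8-cDRGcm (log2 1.03 ± 0.05 SE, adjusted p = 2.91e-18). It fell 2.10-fold in E15.5-mSGcm (log2 -1.07 ± 0.07 SE, adjusted p = 5.95e-16). The rise in E8-cSGcm was at the fold required and was not called without control replicate 2 (log2 0.58) or after correction for GC content and length (0.55). SLC7A5 may share reads with pseudogene copies. SLC3A2 (ENSG00000168003), the shared heavy chain, was at 110.3 and 98.8 in control medium, 138 and 144 in E8-cSGcm, 198 and 202 in E8-cDRGcm and 83.8 and 88.9 in E15.5-mSGcm. It rose in E8-cDRGcm by log2 0.94 ± 0.06 SE, adjusted p = 1.47e-16. In E8-cSGcm and E15.5-mSGcm its log2 fold changes of 0.43 and -0.27 were under the fold required, with no overlap with the controls in either.

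SLC7A11 (ENSG00000151012), the cystine and glutamate exchanger xCT, was at 73.9 and 64.4 in control medium, 79.6 and 80 in E8-cSGcm, 117 and 109 in E8-cDRGcm and 60.6 and 70.7 in E15.5-mSGcm. Its 2 E8-cDRGcm libraries were the highest and its E15.5-mSGcm libraries overlapped the controls. The log2 fold changes of SLC7A11 were 0.21 ± 0.07 SE, adjusted p = 0.0207 in E8-cSGcm, 0.71 ± 0.07 SE, adjusted p = 5.73e-11 in E8-cDRGcm and -0.07 ± 0.08 SE, adjusted p = 0.519 in E15.5-mSGcm. The 2 light chains stood in another ratio in the mouse medium, since SLC7A11 counts divided by SLC7A5 counts gave 0.561 and 0.621 in control medium, 0.44 and 0.455 in E8-cSGcm, 0.437 and 0.514 in E8-cDRGcm and 1.11 and 1.25 in E15.5-mSGcm. SLC7A6 (ENSG00000103064), the light chain of the y+L carrier y+LAT2, moved the other way and was at 54.4 and 52.9 in control medium, 39 and 33.5 in E8-cSGcm, 33 and 27.2 in E8-cDRGcm and 77.3 and 81.3 in E15.5-mSGcm. It fell in E8-cDRGcm by log2 0.84 ± 0.09 SE, adjusted p = 1.91e-10, and was just under the fold required in E8-cSGcm at -0.57 and in E15.5-mSGcm at 0.56, where it was above every control library. SLC7A6 was called lower in E8-cSGcm without control replicate 2 or E8-cSGcm replicate 1, and higher in E15.5-mSGcm without E15.5-mSGcm replicate 1.

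SLC7A3 (ENSG00000165349), the cationic amino acid carrier CAT-3, was nearly unread outside the chick media, with 0 and 2 counts in control medium, 8 and 28 in E8-cSGcm, 43 and 43 in E8-cDRGcm and 1 and 1 in E15.5-mSGcm. In CPM these are 0 and 0.132 in control medium, 0.641 and 1.96 in E8-cSGcm, 3.22 and 3.15 in E8-cDRGcm and 0.128 and 0.114 in E15.5-mSGcm. Against 3 counts per library, taken as the floor, SLC7A3 was at least 6.10-fold higher in E8-cSGcm and at least 14.9-fold higher in E8-cDRGcm than in control medium, and at least 3.58-fold and 8.76-fold higher than in E15.5-mSGcm. These bounds use the mean of 2 libraries, and from E8-cSGcm replicate 1 alone, without replicate 2, they were 3.01-fold against control and 1.76-fold against E15.5-mSGcm. The adjusted p was 7.06e-05 in E8-cSGcm and 7.77e-09 in E8-cDRGcm, and DESeq2 gave no adjusted p for the first. SLC7A1, the main cationic carrier CAT-1, was at 353 to 511 CPM, with log2 fold changes of -0.47, -0.34 and -0.29, none of which was called.

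Of the 5 sodium-coupled neutral carriers among the members, 2 rose in E8-cDRGcm and 1 fell in each medium. SLC1A5 (ENSG00000105281), the glutamine carrier ASCT2, was at 362 and 351 in control medium, 469 and 452 in E8-cSGcm, 618 and 650.1 in E8-cDRGcm and 225 and 222 in E15.5-mSGcm. No 2 groups overlapped. It rose 1.78-fold in E8-cDRGcm (log2 0.83 ± 0.05 SE, adjusted p = 2.98e-17). It fell 1.59-fold in E15.5-mSGcm (log2 -0.67 ± 0.05 SE, adjusted p = 1.46e-13), the latter not being called after correction for GC content and length (log2 -0.46). In E8-cSGcm the log2 fold change of 0.37 was under the fold required. SLC1A4 (ENSG00000115902), the related alanine, serine and cysteine carrier ASCT1, was at 34 and 39.4 in control medium, 52.7 and 49.4 in E8-cSGcm, 82.8 and 89.4 in E8-cDRGcm and 29.6 and 34.2 in E15.5-mSGcm. It rose in E8-cDRGcm by log2 1.23 ± 0.08 SE, adjusted p = 3.49e-16. SLC6A9 (ENSG00000196517), the glycine carrier GlyT1, was at 13.2 and 14.3 in control medium, 9.14 and 8.96 in E8-cSGcm, 9.87 and 7.47 in E8-cDRGcm and 11.8 and 13.4 in E15.5-mSGcm. It fell by log2 0.60 ± 0.14 SE, adjusted p = 0.000927, in E8-cSGcm and by log2 0.66 ± 0.14 SE, adjusted p = 0.000147, in E8-cDRGcm. Those calls were lost without control replicate 2 for E8-cSGcm (log2 -0.54) and without E8-cDRGcm replicate 2 for E8-cDRGcm (-0.47).

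SLC38A1 and SLC38A2, the system A carriers SNAT1 and SNAT2, were lowest in the chick media and highest in the mouse medium. SLC38A1 was at 509 and 511 in control medium, 373 and 345 in E8-cSGcm, 402 and 392 in E8-cDRGcm and 604 and 605 in E15.5-mSGcm. SLC38A2 was at 412 and 426 in control medium, 320.0 and 305 in E8-cSGcm, 355 and 325 in E8-cDRGcm and 606 and 613 in E15.5-mSGcm. Neither passed the fold required against control, with log2 fold changes of -0.51, -0.36 and 0.24 for SLC38A1 and -0.42, -0.30 and 0.54 for SLC38A2 in E8-cSGcm, E8-cDRGcm and E15.5-mSGcm, although both had an adjusted p under 0.05 in all 3 media.

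SLC43A1 (ENSG00000149150), the sodium-independent carrier LAT3 of leucine and other large neutral amino acids, had 12 and 10.9 in control medium, 17.3 and 18.8 in E8-cSGcm, 17.1 and 21.7 in E8-cDRGcm and 5.25 and 7.54 in E15.5-mSGcm CPM. It rose by log2 0.66 ± 0.13 SE, adjusted p = 0.000119, in E8-cSGcm and by log2 0.77 ± 0.13 SE, adjusted p = 4.55e-06, in E8-cDRGcm. Its log2 fold change in E15.5-mSGcm was -0.82 ± 0.18 SE, adjusted p = 0.000348, with both libraries below every other. SLC36A1, the proton-coupled lysosomal and plasma membrane carrier PAT1, and SLC25A22, a mitochondrial glutamate carrier, were at 18.7 to 28.2 and 12.8 to 22.3 CPM and were not called in any medium. SLC25A22 was called lower in E15.5-mSGcm without E15.5-mSGcm replicate 2, and BCAT2 without E15.5-mSGcm replicate 1.

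**Figure D3:**
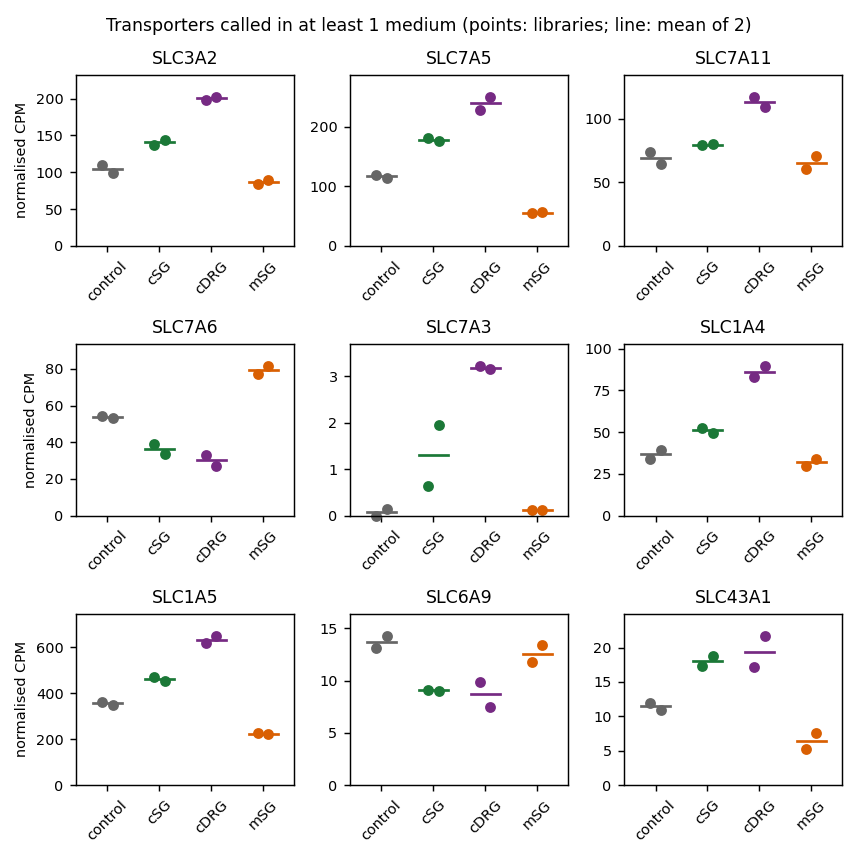
Normalised CPM (y axis, from 0) of the 9 transporters called in at least 1 medium, drawn as for the enzymes, with a point for each library and a line at the mean of the 2 libraries of each group. SLC7A6 is lowest in the chick media and reaches 77.3 and 81.3 CPM in E15.5-mSGcm, while SLC7A5 and SLC1A5 are highest in E8-cDRGcm and lowest in E15.5-mSGcm.

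Compared per kilobase of exon in control medium, the most abundant members were SLC1A5 at 107 CPM per kb, PSAT1 at 69.1, SLC7A1 at 66.5, GOT2 at 65.6 and SLC38A2 at 64.4, and the least abundant CBS at 1.03, ASNS at 0.792 and SLC7A3 at 0.029. In E8-cDRGcm SLC1A5 reached 190.4 CPM per kb and PSAT1 116. Reads that the counting left unassigned would lower such levels, and this was not tested.

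The media were then compared with each other, which tests each difference itself. Between E8-cDRGcm and E8-cSGcm 5 members were higher with the dorsal root ganglion medium and none was lower, where 2.62% and 4.87% of all genes tested were called higher and lower. Without SLC7A3, tested only because it is high in the chick media, 4 of 33 were higher. The 5 were ASNS (log2 1.26 ± 0.12 SE, adjusted p = 1.75e-10), SLC7A3 (1.25 ± 0.36 SE, adjusted p = 0.00807), SLC1A4 (0.76 ± 0.07 SE, adjusted p = 3.48e-10), CTH (0.72 ± 0.08 SE, adjusted p = 6.02e-09) and GPT2 (0.61 ± 0.06 SE, adjusted p = 5.87e-10). Of the 0 called lower, 8 had a negative difference at an unadjusted p under 0.05 in the edgeR quasi-likelihood test, none of them at a fold of 1.5, and DESeq2 called 0. SHMT2 was one of these, with a log2 difference of -0.27 ± 0.05 SE, adjusted p = 4.15e-05. Without E8-cSGcm replicate 1 SLC7A3 (log2 0.69) and GPT2 (0.56) were no longer called and 3 members remained higher, and SLC7A3 was also not called without E8-cDRGcm replicate 1 (adjusted p = 0.051). Its 2 E8-cSGcm libraries held 8 and 28 counts, which lay 1.11 apart on the log2 scale of CPM with 0.5 added, where no other member's replicates differed by more than 0.54.

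Between E15.5-mSGcm and E8-cSGcm 18 members were lower with the mouse medium and 3 higher, where 12.1% and 10.2% of all genes tested were called lower and higher. Against E8-cDRGcm 20 were lower and 3 higher with the mouse medium, where 13.1% of all genes tested were called in each direction. This comparison was added after the values had been seen. Without SLC7A3 17 and 19 of 33 were lower. The median log2 difference of the members was -0.64 and -0.86, beside -0.013 and -0.0005 over all genes. Of the 19 members that rose in a chick medium, 17 were lower in E15.5-mSGcm than in E8-cSGcm and all 19 lower than in E8-cDRGcm. After correction for GC content and length PYCR1 was no longer called in either (log2 -0.54 and -0.50). Since the same libraries gave the rise against control and enter these differences, the counts are not independent of it. The 3 members higher with the mouse medium in both comparisons were SLC7A6, SLC38A1 and SLC38A2. SLC7A6 differed by log2 1.13 ± 0.08 SE, adjusted p = 7.09e-14, from E8-cSGcm and by log2 1.40 ± 0.09 SE, adjusted p = 2.07e-16, from E8-cDRGcm. SLC38A2 differed by log2 0.96 ± 0.05 SE, adjusted p = 2.52e-18, and 0.84 ± 0.05 SE, adjusted p = 5.88e-17, and SLC38A1 by log2 0.75 ± 0.05 SE, adjusted p = 1.23e-15, and 0.60 ± 0.05 SE, adjusted p = 2.72e-13. For SLC38A1 the second was not called without E8-cDRGcm replicate 2 (log2 0.58), after correction for GC content and length (0.49) or with a minimum of 1 count in total (0.55).

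The largest differences between the mouse and the chick sympathetic media were in SLC7A3, with 1 count in each mouse-medium library, and in ASNS (log2 -2.25 ± 0.22 SE, adjusted p = 5.07e-11), SLC7A5 (-1.68 ± 0.06 SE, adjusted p = 3.9e-22), CTH (-1.63 ± 0.12 SE, adjusted p = 1.94e-14) and SHMT2 (-1.52 ± 0.05 SE, adjusted p = 3.95e-23). The SLC7A3 difference was not called without E8-cSGcm replicate 2 (adjusted p = 0.0647). Outside these 19 members, SLC25A22 (log2 -0.64 ± 0.12 SE, adjusted p = 3.47e-05) in the comparison with E8-cSGcm and BCAT2 (log2 -0.79 ± 0.12 SE, adjusted p = 5.37e-07) in that with E8-cDRGcm, were also lower with the mouse medium, and SLC25A22 was not called without E15.5-mSGcm replicate 1 (log2 -0.55) or after correction for GC content and length (-0.29). BCAT2 was called lower against E8-cSGcm as well without E8-cSGcm replicate 1 or E15.5-mSGcm replicate 1.

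**Figure D4:**
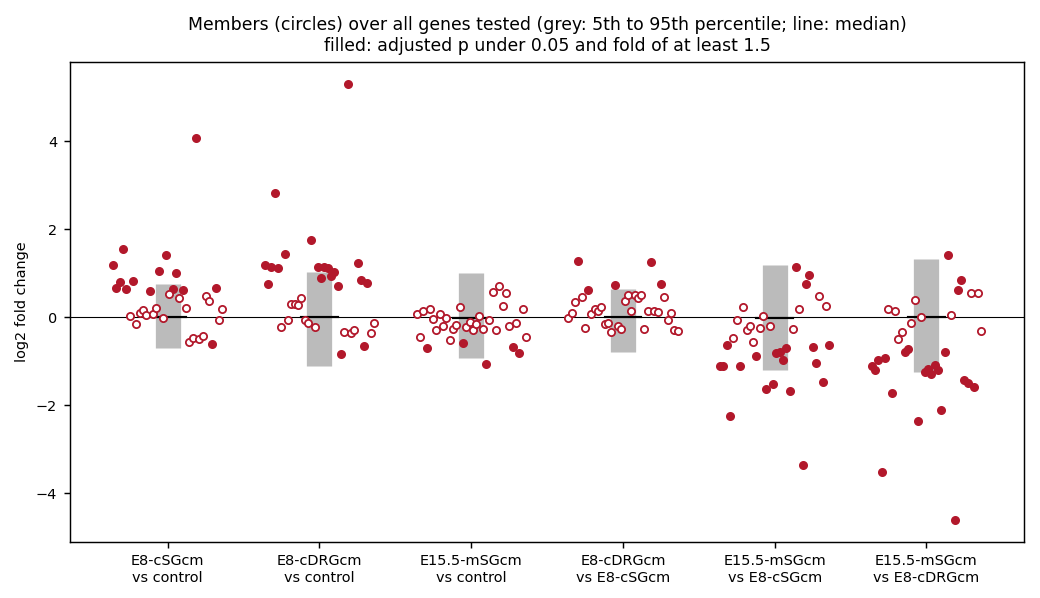
Log2 fold change (y axis) of the 34 tested members in 6 comparisons, as circles filled where the member was called, over a grey bar from the 5th to the 95th percentile and a line at the median of all 16680 genes tested. The members' medians are 0.40, 0.73 and -0.17 against control and 0.14, -0.64 and -0.86 between media, while the line stays near 0 in every comparison.

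Other genes of the same metabolism, taken from lists outside the 36 members, are given next. Of 19 tested genes of folate and one-carbon metabolism, 1, 3 and 2 fell in E8-cSGcm, E8-cDRGcm and E15.5-mSGcm and 0 rose in any of them (3, 3 and 2 with a positive fold change at an unadjusted p under 0.05 in the edgeR quasi-likelihood test, DESeq2 calling 0). Those that fell were 5.26%, 15.8% and 10.5% of the list, beside 3.86%, 10.9% and 7.27% of all genes tested. SLC19A1, the reduced folate carrier, was at 33.7 and 36.1 in control medium, 25 and 27.9 in E8-cSGcm, 13.1 and 15.2 in E8-cDRGcm and 24.2 and 26.3 in E15.5-mSGcm CPM. It fell in E8-cDRGcm by log2 1.31 ± 0.10 SE, adjusted p = 1.58e-13. MAT2A, which makes S-adenosylmethionine, was at 187 and 174 in control medium, 96.1 and 98.3 in E8-cSGcm, 85.9 and 79.3 in E8-cDRGcm and 136 and 131 in E15.5-mSGcm. MAT2A fell in both chick media (log2 -0.89 ± 0.06 SE, adjusted p = 3.25e-15 in E8-cSGcm and -1.13 ± 0.06 SE, adjusted p = 1.13e-18 in E8-cDRGcm).

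Of 10 tested other enzymes of amino acid metabolism, 3 rose in each medium and 0, 1 and 1 fell in E8-cSGcm, E8-cDRGcm and E15.5-mSGcm. The 3 were 30% of the list, beside 4.73%, 9.81% and 6.65% of all genes tested. ARG2, the mitochondrial arginase, was at 20.6 and 22.2 in control medium, 51.3 and 51.5 in E8-cSGcm, 119 and 119 in E8-cDRGcm and 52.7 and 58.7 in E15.5-mSGcm CPM. It rose in all 3 media, by log2 1.26 ± 0.08 SE, adjusted p = 3.25e-15, in E8-cSGcm, 2.47 ± 0.07 SE, adjusted p = 8.22e-26, in E8-cDRGcm and 1.38 ± 0.08 SE, adjusted p = 5.25e-16, in E15.5-mSGcm. ASS1, argininosuccinate synthetase, was at 67.8 and 59.6 in control medium, 226 and 271 in E8-cSGcm, 158 and 147 in E8-cDRGcm and 74.8 and 78.6 in E15.5-mSGcm. ASS1 rose in E8-cSGcm (log2 1.97 ± 0.08 SE, adjusted p = 2.31e-12) and E8-cDRGcm (log2 1.26 ± 0.08 SE, adjusted p = 4.23e-10). GLS2, a glutaminase, had 9 and 4 counts in control medium and 27 and 28 in E8-cDRGcm, where it was called higher (log2 2.12 ± 0.45 SE, adjusted p = 0.000168). It passed the filter on low counts only through the chick media, where it is high. The share called higher in E8-cDRGcm therefore follows in part from the filter. In E15.5-mSGcm ALDH4A1, of proline breakdown, fell (log2 -1.01 ± 0.13 SE, adjusted p = 7.61e-08) and CPS1, with at most 41 counts in any library, was called higher (log2 0.96 ± 0.26 SE, adjusted p = 0.00298) but not with DESeq2 (adjusted p = 0.0614).

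Of 11 tested other plasma membrane amino acid transporters, 2 rose in each medium and 0, 2 and 2 fell. Each 2 was 18.2% of the list, beside 4.73%, 9.81% and 6.65% of all genes called higher and, in E8-cDRGcm and E15.5-mSGcm, 10.9% and 7.27% called lower. The 2 that rose in E15.5-mSGcm, SLC7A10 and SLC1A2, passed the filter on low counts only through that medium, where they are high. The share called higher there therefore follows in part from the filter. SLC6A6, the taurine carrier, was at 154 and 145 in control medium, 129 and 125 in E8-cSGcm, 80.1 and 69.7 in E8-cDRGcm and 164 and 167 in E15.5-mSGcm CPM. It fell 2.00-fold in E8-cDRGcm (adjusted p = 1.85e-16). SLC1A3, a glutamate and aspartate carrier, was at 2.6 and 3.16 in control medium, 6.25 and 5.39 in E8-cSGcm, 7.48 and 6.3 in E8-cDRGcm and 1.79 and 1.94 in E15.5-mSGcm. SLC1A3 rose 2.00-fold in E8-cSGcm (adjusted p = 0.00037) and 2.37-fold in E8-cDRGcm (adjusted p = 4.12e-06). SLC7A7, with at most 26 counts in any library, was called higher in E8-cDRGcm (log2 1.06 ± 0.40 SE, adjusted p = 0.0257) but not with DESeq2 (adjusted p = 0.188) or without any single library of the pair of groups (0.0508 to 0.131). The mouse medium stood apart in SLC7A10, with 19 and 31 counts against 0 to 2 in each other library, and in SLC38A3, with 2 and 3 counts against 15 to 26. SLC1A2 had 8 and 7 counts in E15.5-mSGcm and 2 to 4 elsewhere, and its call was lost without either mouse-medium library or control replicate 2.

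ATF4 and 14 other tested genes of its feedback loop were read beside the members, since ATF4 is known to drive many of them. In E8-cSGcm 4 of the 15 rose and 2 fell, in E8-cDRGcm 7 rose and in E15.5-mSGcm 1 rose and 3 fell. The shares that rose were 26.7%, 46.7% and 6.67%, beside 4.73%, 9.81% and 6.65% of all genes tested, and those that fell 13.3% in E8-cSGcm and 20.0% in E15.5-mSGcm, beside 3.86% and 7.27%. ATF4 itself was at 349 and 309.7 in control medium, 299.8 and 332 in E8-cSGcm, 392 and 374 in E8-cDRGcm and 273 and 292 in E15.5-mSGcm CPM and was not called, with log2 fold changes of -0.06, 0.22 and -0.22, and its translation was not measured here. TRIB3, a pseudokinase that restrains ATF4, was at 30.6 and 28.8 in control medium, 56.4 and 71.2 in E8-cSGcm, 158 and 175 in E8-cDRGcm and 18.7 and 21.7 in E15.5-mSGcm. TRIB3 rose by log2 1.11 ± 0.10 SE, adjusted p = 9.73e-09, in E8-cSGcm and 2.49 ± 0.09 SE, adjusted p = 5.76e-16, in E8-cDRGcm. DDIT3, the transcription factor CHOP, was at 10.8 and 9.6 in control medium, 18.4 and 22.4 in E8-cSGcm, 35.4 and 32.4 in E8-cDRGcm and 7.94 and 10.1 in E15.5-mSGcm. DDIT3 rose by log2 1.01 ± 0.12 SE, adjusted p = 3.93e-08, in E8-cSGcm and 1.74 ± 0.11 SE, adjusted p = 1.91e-15, in E8-cDRGcm. Both were higher in E8-cDRGcm than in every other library, as ASNS and CTH were. ATF5, a related factor, was at 31.6 and 30.8 in control medium, 91.5 and 103 in E8-cSGcm, 148 and 150.3 in E8-cDRGcm and 31.5 and 36.3 in E15.5-mSGcm. It rose in both chick media (log2 1.64 and 2.26, adjusted p = 7.97e-20 and 3.11e-25). CHAC1, which degrades glutathione, went the other way and was at 35.6 and 28.8 in control medium, 18.8 and 22.2 in E8-cSGcm, 23.9 and 24.8 in E8-cDRGcm and 7.17 and 7.77 in E15.5-mSGcm. It fell in E8-cSGcm (log2 -0.64 ± 0.10 SE, adjusted p = 6.22e-06) and in E15.5-mSGcm (log2 -2.10 ± 0.14 SE, adjusted p = 6.88e-15), and the first call was lost without control replicate 1 (log2 -0.48) or E8-cSGcm replicate 1 (-0.53).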

How the data were processed

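The authors made stranded total RNA libraries from 50 ng of RNA, sequenced them as 75 bp single reads, trimmed the reads with cutadapt 1.9.1 after bcl2fastq 2.17.1.14, mapped them with TopHat2 2.1.0 and counted them per Ensembl gene with HTSeq 0.11.3; the values are deposited as raw counts with no normalisation. The paper names hg19 and the submitters' processing notes hg38 as the genome build, and the annotation release and the strand setting of the counting are not given in the sources used here, so antisense and overlapping genes, pseudogene copies and paralogs may share reads, and no gene coordinates are given from the counts. The labels and the study's methods give 20 h of exposure and its design text 24 h, and the label is used.

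Symbols and exon lengths came from GENCODE 44 mapped to GRCh37, which matched 58611 of 60676 IDs. The 8 libraries fell into 4 groups by their labels. Counts were normalised by TMM and tested with edgeR 4.0.16 in R 4.3.3 (filterByExpr by group, robust quasi-likelihood fit over all 8 libraries, Benjamini-Hochberg adjustment over all 16680 genes tested). Calls needed an adjusted p below 0.05 together with a 1.5-fold or larger change. The study's own comparison used DESeq2; DESeq2 1.42.0 was run as an alternative. The fits were tested on simulated counts. Promoter windows came from RefSeq (GRCh38.p14). Figures were drawn with matplotlib 3.10.9.

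The members and all gene lists were chosen with earlier results of these data known, so no test is made over a list. Each member called in at least 1 comparison with control is given in every library, and other members by their range; of each other list the 3 called genes with the largest absolute log2 fold change in the comparison with control with the most calls are named (in both where 2 tie), and ATF4, DDIT3, TRIB3 and CHAC1 in any case. Values of some genes in the other lists are not reported here, although the list counts and sums include them. Depth was 7930765 to 15060744 counts per library, and limits from counts cover counting error only. Alternatives were a fit of the 2 groups alone, calls without the fold, a minimum of 1 summed count or of 10 counts per library, RLE scaling, a block for the replicate number and the omission of each library; thinning and a correction for GC content and length were added after the data had been seen.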

Additional observations from a re-analysis of the deposited data

Results flagged for a closer look

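The following members moved in opposite directions against control in 2 media, and the test of the difference between those media passed in edgeR's quasi-likelihood fit. Chance can give such pairs among many tests, and the cause was not tested. Each member was picked for a called rise in 1 medium and a called fall in the other, against the same control libraries. A difference between those media, and the order of their libraries, therefore largely follows from the pick. Between E15.5-mSGcm and E8-cSGcm, ASNS differed by log2 -2.25 (adjusted p = 5.07e-11), CTH by -1.63 (1.94e-14), SLC7A5 by -1.68 (3.9e-22) and SLC43A1 by -1.48 (1.7e-09). Between E15.5-mSGcm and E8-cDRGcm, ASNS differed by log2 -3.52 (adjusted p = 1.85e-18), CTH by -2.35 (3.2e-20), SLC7A5 by -2.10 (1.48e-25), SLC1A5 by -1.51 (3.08e-24) and SLC43A1 by -1.59 (1.71e-10). In each of these genes both E15.5-mSGcm libraries were below both libraries of the chick medium. The fall against control, which makes the directions opposite, was lost for ASNS and CTH when some single libraries were left out, as given with their values, and for SLC1A5 after correction for GC content and length. The rise of SLC7A5 in E8-cSGcm was lost without control replicate 2 (log2 0.58) and after that correction (0.55).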

How the results depend on the processing

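Of 89 calls of a member in a comparison, 75 were made under every alternative that tested the member, and no called value changed sign. With the adjusted p alone, without the fold required, the members called rose to 6 lower in E8-cSGcm, 8 lower in E8-cDRGcm, 3 higher and 15 lower in E15.5-mSGcm, 16 higher and 7 lower in E8-cDRGcm against E8-cSGcm, 7 higher in E15.5-mSGcm against E8-cSGcm and 7 higher against E8-cDRGcm. Thinned to the smallest library, 2 were lower in E8-cSGcm, SLC7A6 being added. From only the libraries compared, 3 were lower in E15.5-mSGcm, ASNS and CTH being lost. Corrected for GC content and length, the median log2 difference of the members was -0.53 between E15.5-mSGcm and E8-cSGcm and -0.96 between E15.5-mSGcm and E8-cDRGcm. With each library left out in turn, 1 to 2 were lower in E8-cSGcm (2 without E8-cSGcm replicate 1), 1 to 2 lower in E8-cDRGcm (1 without E8-cDRGcm replicate 2), 0 to 1 higher in E15.5-mSGcm (1 without E15.5-mSGcm replicate 1) and 3 to 5 higher in E8-cDRGcm against E8-cSGcm (3 without E8-cSGcm replicate 1). In the comparison of E15.5-mSGcm with E8-cDRGcm, SLC6A9 was called higher without E8-cDRGcm replicate 1 or E15.5-mSGcm replicate 1. Same-numbered libraries did not deviate together over all genes tested (correlations from -0.0437 to 0.042), which cannot exclude a pairing that touches few genes. With the replicate block all 89 calls held, for example -0.69 for ASNS in E15.5-mSGcm. DESeq2 gave no adjusted p for SLC7A3 in E8-cSGcm and in E8-cDRGcm against E8-cSGcm. Depth limits SLC7A3 and CBS, which had 126 and 726 counts over the 8 libraries.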
